A study of Homo sapiens with 24 samples.

Results

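The class 3 semaphorins and the neuropilins were followed as 8 of the 39321 genes in the count table, which were *SEMA3A*, *SEMA3B*, *SEMA3C*, *SEMA3D*, *SEMA3E*, *SEMA3F*, *NRP1* and *NRP2*. They were found by matching Ensembl identifiers to gene symbols. The family was selected on the measured rise of *SEMA3F* with IFNγ in both cell lines. All values of *SEMA3F*, and their differences between siRNA arms and lines, are therefore given as a description without a test. *SEMA3F* is left out of the counts of genes called unless it is said to be included. *SEMA3D* had too few counts in A498 to be tested, and in 786-O it passed the filter on low counts only through the group where it was highest, so its counts are described without a test and it is left out of the counts of genes called. The other 6 genes were tested throughout. *SEMA3G*, the remaining gene of the class, was at or near 0 counts in every group and was below the filter on low counts in both lines.

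RNA was sequenced from 24 libraries of A498 and 786-O, established human lines from clear cell kidney cancer. Each line had 4 groups of 3 libraries. In Cnsi the cells received a non-targeting siRNA pool, and in PD-L1si a pool against PD-L1 (gene *CD274*), both at 20 nM. After 24 h of transfection, the Cnsi IFNγ and PD-L1si IFNγ cells received 50 ng/mL of interferon gamma for a further 24 h. The labels call the PD-L1 groups a knockout, but the treatment they describe is a transient siRNA, which leaves part of the transcript. They do not say whether replicates were separate cultures, so p-values measure the spread between these libraries, which may be technical.

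The line names are used as the sample labels give them, and there is reason to doubt that they sit on the right libraries. An earlier comparison with the study's own tables matched each set of libraries to the table of the other line. Genes that could tell the lines apart were not examined here, so "A498" and "786-O" mean the libraries so labelled. The lines were also sequenced on different instruments according to the study's methods, so a difference between lines and one between instruments cannot be told apart.

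Class 3 semaphorins are secreted guidance proteins, known first for repelling growing axons and later for restraining blood vessel growth. Neuropilins bind them at the cell surface, and plexins of the A class carry the signal into the cell. *SEMA3F* acts mainly through neuropilin-2 and *SEMA3A* mainly through neuropilin-1, while *SEMA3E* can bind plexin D1 without a neuropilin. Neuropilins also bind VEGF, a growth factor that clear cell renal carcinoma makes in excess. *SEMA3B* and *SEMA3F* are regarded as tumor suppressors and lie near each other on the short arm of chromosome 3, an arm often lost in this cancer.

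On GRCh38, *SEMA3F* spans chr3:50155045-50189075 and *SEMA3B* chr3:50267558-50277546, both on the plus strand. *SEMA3C* (chr7:80742538-80922359), *SEMA3E* (chr7:83363238-83649139), *SEMA3A* (chr7:83955777-84492724) and *SEMA3D* (chr7:84995553-85187056) lie on the minus strand of chromosome 7. *NRP1* is at chr10:33177492-33336262 on the minus strand and *NRP2* at chr2:205681990-205798133 on the plus strand. All 8 are protein-coding.

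The 250 bases before a RefSeq transcription start (GRCh38.p14, 5′ to 3′ on the gene's strand) are shown for *SEMA3F*, on which the choice of genes rests, for *SEMA3C*, which rose with it in Cnsi, and for *SEMA3E*, the only one of the 6 genes with an entry whose windows held an interferon motif. *SEMA3A* and *NRP1* had no entry. Searched on both strands were GAS (TTCNNNGAA), the ISRE core (GAAA, any 2 bases, GAAA) and the hypoxia response core (ACGTG), and capitals mark a match.
SEMA3F, chr3:50154808-50155057, plus strand: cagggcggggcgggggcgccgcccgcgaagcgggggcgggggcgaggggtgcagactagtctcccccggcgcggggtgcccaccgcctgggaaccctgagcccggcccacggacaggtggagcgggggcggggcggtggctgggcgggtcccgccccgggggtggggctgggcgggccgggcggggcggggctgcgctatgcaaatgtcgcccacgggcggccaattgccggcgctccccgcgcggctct
SEMA3C, chr7:80922390-80922639, minus strand: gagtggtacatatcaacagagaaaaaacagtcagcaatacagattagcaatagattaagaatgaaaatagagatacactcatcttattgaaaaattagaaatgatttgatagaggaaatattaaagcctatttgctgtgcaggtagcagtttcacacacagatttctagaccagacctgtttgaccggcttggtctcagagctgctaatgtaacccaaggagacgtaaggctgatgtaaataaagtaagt
SEMA3E, chr7:83649140-83649389, minus strand: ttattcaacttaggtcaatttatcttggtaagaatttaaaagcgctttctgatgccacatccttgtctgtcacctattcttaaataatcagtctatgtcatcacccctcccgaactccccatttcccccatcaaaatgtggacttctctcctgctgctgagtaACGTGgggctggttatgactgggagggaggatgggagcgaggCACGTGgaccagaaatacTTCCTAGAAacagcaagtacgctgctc

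The *SEMA3F* window is 82.0% G and C and held 0 matches, as did its 2 further RefSeq windows. That of *SEMA3C* is 36.4% G and C and also held 0, and its further RefSeq window, chr7:80919052-80919301, is 77.6% G and C and held 0. The *SEMA3E* window held 1 GAS match at −27 to −19 from the start, and 3 hypoxia matches, 2 of which are the overlapping strands of one CACGTG. Its further RefSeq window, at 34.8% G and C, held 0 matches. Among 35116 RefSeq windows of this length, 6.57% held a GAS, 3.02% an ISRE and 18.5% a hypoxia match. These are letters in a short window and not binding sites.

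Libraries held 19256316 to 30350461 counts. The siRNA lowered *CD274* in every comparison: under IFNγ the mean went from 193.7 ± 4.72 to 27.7 ± 0.779 CPM in A498 and from 60.4 ± 5.10 to 31.4 ± 1.17 CPM in 786-O (SD, n = 3). That left 0.143 of the *CD274* level in A498 and 0.520 in 786-O, as fitted by edgeR. CPM is the count relative to the TMM-scaled library total. *IRF1*, a direct IFNγ target, rose by log2 4.62 and 4.77 with IFNγ in Cnsi. Of the kidney tumor markers, *PAX8*, *KRT8*, *KRT18* and *VIM* were expressed in both lines. *PAX2* had 10351 counts in A498 and 0 in all libraries of 786-O, where such rows are treated as not measured. Endothelial and leukocyte markers were near 0: over 12 libraries, *PECAM1* had 1 count in A498 and 180 in 786-O, *CDH5* had 0 and 3, and *PTPRC* had 1 and 19. In 786-O *PECAM1* had 14 counts over the Cnsi libraries and 57 with IFNγ, and 16 and 93 with PD-L1si, a rise of log2 2.13 and 2.63. Of the fibroblast and pericyte markers *RGS5* had 2208 and 1774 counts, *PDGFRB* 101 and 255 and *PDGFRA* 5 and 38. *COL1A1* had 514 in A498 and was not measured in 786-O. With IFNγ in A498, *RGS5* rose by 1.12 in Cnsi and 0.68 in PD-L1si, and *COL1A1* changed by −1.44 and −1.19. In 786-O *PDGFRB* changed by −1.19 and −1.49. The part of these markers in the results was not tested. A further 1475 genes with over 1000 counts in A498 have 0 in all 12 libraries of 786-O, among them *VEGFA*, and are treated as not measured there. None of the 8 genes is among them, but CPM in 786-O is scaled to a total without them.

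*SEMA3F*, the gene that chose the family, rose with IFNγ in both lines and both siRNA arms. In A498 it was at 19.5, 19.8 and 17.9 CPM in the Cnsi libraries and at 78.0, 67.7 and 71.7 CPM with IFNγ. With PD-L1si it was at 32.2, 34.6 and 34.4 CPM, and with PD-L1si and IFNγ at 109, 91.9 and 94.8 CPM. Every IFNγ library was above every library without IFNγ. In bulk RNA, more expressing cells and more RNA per cell cannot be told apart. The log2 fold changes were 1.93 (SE 0.0664), or 3.80-fold, in Cnsi and 1.55 (SE 0.0594), or 2.92-fold, in PD-L1si.

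In 786-O the rise of *SEMA3F* was larger. Its levels were 23.9, 24.3 and 25.9 CPM with Cnsi and 173, 191 and 186 CPM in the Cnsi IFNγ libraries. The PD-L1si libraries were at 28.9, 31.6 and 30.7 CPM, and those with IFNγ added at 183, 199 and 187 CPM. The log2 fold changes were 2.89 (SE 0.0559), or 7.43-fold, in Cnsi and 2.64 (SE 0.0546), or 6.23-fold, in PD-L1si. The Cnsi levels of *SEMA3F* in the lines gave a log2 difference of 0.15 (SE 0.0707, 786-O minus A498). Of the other 6 genes tested in both lines 4 differed in their Cnsi level, against 49.9% of all genes, so such a difference was common. All 4 were lower in 786-O: *SEMA3A* by −5.18, *SEMA3B* by −2.62, *SEMA3C* by −2.60 and *SEMA3E* by −2.51. The median difference over all genes was −0.0154.

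**Figure D1:**
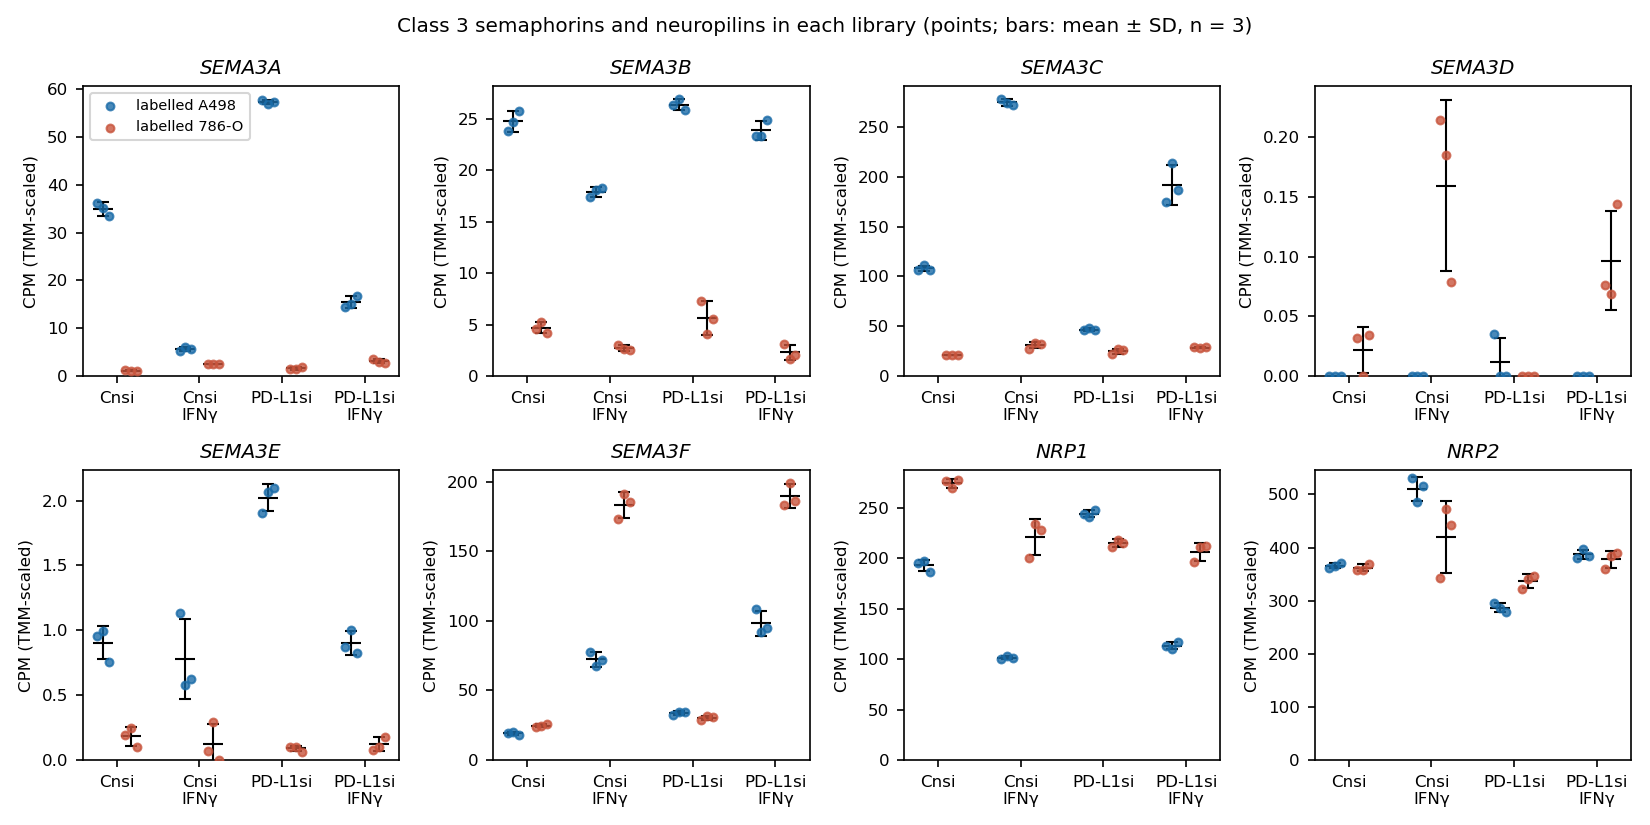
TMM-scaled CPM (linear axes from 0, one scale per gene) of the 8 genes in each library by group, with points for libraries and bars for the mean ± SD (n = 3). *SEMA3F* is higher in all IFNγ libraries of both lines, while *SEMA3A* goes from 34.9 to 5.69 CPM in A498 and from 1.12 to 2.53 CPM in 786-O.

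Among the 6 genes other than *SEMA3F* and *SEMA3D*, IFNγ in Cnsi changed 3 in A498 (*SEMA3C* higher, *SEMA3A* and *NRP1* lower) and 3 in 786-O (*SEMA3A* and *SEMA3C* higher, *SEMA3B* lower). A gene was called at an adjusted p under 0.05 from edgeR's quasi-likelihood test and an absolute log2 fold change over 0.5. The same rule called 36.8% of all genes tested in A498 and 18.5% in 786-O. In PD-L1si, 4 of the 6 were called in A498 against 33.5% of all genes (*SEMA3C* higher, *SEMA3A*, *SEMA3E* and *NRP1* lower), and 2 in 786-O against 18.4% (*SEMA3A* higher, *SEMA3B* lower).

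*SEMA3A*, a ligand of neuropilin-1, moved in opposite directions in the lines. In A498 it was at 36.3, 35.1 and 33.4 CPM with Cnsi and at 5.28, 6.17 and 5.63 CPM with IFNγ, a log2 fold change of −2.61 (SE 0.0825, adjusted p = 2.27e-26, edgeR). In PD-L1si it went from 57.8, 56.9 and 57.4 to 14.5, 15.1 and 16.8 CPM, a change of −1.89 (SE 0.0628, adjusted p = 8.20e-25, edgeR). In 786-O the gene was scarce, with 29 to 39 counts per Cnsi library and 66 to 69 with IFNγ, and it rose by 1.17 (SE 0.182, adjusted p = 6.58e-06, edgeR). With PD-L1si in 786-O the counts went from 41, 45 and 56 to 93, 88 and 75, a rise of 0.97 (SE 0.164, adjusted p = 2.46e-05, edgeR). The libraries with and without IFNγ did not overlap in any of these comparisons. The difference between the lines in the IFNγ effect, 786-O minus A498, was 3.78 (SE 0.182, adjusted p = 9.86e-21, edgeR).

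*SEMA3C*, which unlike most of its class is linked to tumor cell migration, rose in both lines. In A498 it went from 106, 111 and 107 CPM with Cnsi to 278, 274 and 272 CPM with IFNγ, a log2 fold change of 1.35 (SE 0.0491, adjusted p = 7.95e-23, edgeR). With PD-L1si it went from 45.7, 48.3 and 45.9 to 175, 214 and 187 CPM, a change of 2.04 (SE 0.0528, adjusted p = 2.64e-27, edgeR). In 786-O the rise was smaller, from 20.9, 20.8 and 20.9 to 27.3, 33.1 and 32.3 CPM, or 0.57 (SE 0.0742, adjusted p = 6.60e-07, edgeR). With PD-L1si in 786-O it was 0.18 (SE 0.0733, adjusted p = 0.0489, edgeR), under the fold-change threshold. The line difference in Cnsi was −0.79 (SE 0.0922, adjusted p = 4.86e-09, edgeR).

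*SEMA3B*, the chromosome 3 neighbour of *SEMA3F*, did not rise with it. In A498 it went from 23.8, 24.7 and 25.8 to 17.4, 18.1 and 18.3 CPM in Cnsi, a log2 fold change of −0.47 (SE 0.0614, adjusted p = 2.87e-08, edgeR) that is under the fold-change threshold. In 786-O it went from 4.60, 5.29 and 4.22 to 3.01, 2.59 and 2.48 CPM, a fall of −0.80 (SE 0.227, adjusted p = 0.0101, edgeR). With PD-L1si in 786-O the fall was −1.31 (SE 0.229, adjusted p = 2.17e-04, edgeR). The line difference in Cnsi, −0.34 (adjusted p = 0.184, edgeR), did not pass.

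*SEMA3E*, the plexin D1 ligand, and *SEMA3D*, which guides axons and vessels in development, were near the limit of detection. *SEMA3E* had 13 to 59 counts per library in A498. With IFNγ it changed by −0.21 (SE 0.265, adjusted p = 0.511, edgeR) in Cnsi, and it fell by 1.17 on the log2 scale in PD-L1si (SE 0.230, adjusted p = 1.96e-05, edgeR). In 786-O *SEMA3E* had 0 to 8 counts per library, and the exact 95% interval of the IFNγ to Cnsi ratio ran from 0.255 to 1.47, for counting error only. *SEMA3D* had 1 count in all 12 libraries of A498. In 786-O it had 2 counts over the Cnsi libraries and 13 over the Cnsi IFNγ libraries. With PD-L1si in 786-O it had 0 counts without IFNγ and 8 with it.

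The neuropilins moved apart in A498. *NRP1* was at 195, 197 and 186 CPM with Cnsi and at 100, 103 and 101 CPM with IFNγ, a log2 fold change of −0.93 (SE 0.0407, adjusted p = 1.12e-20, edgeR). In PD-L1si it fell from 244, 241 and 247 to 113, 110 and 117 CPM, a change of −1.11 (SE 0.0404, adjusted p = 5.12e-23, edgeR). *NRP2* went from 362, 365 and 370 to 530, 486 and 516 CPM in Cnsi, a change of 0.48 (SE 0.0396, adjusted p = 5.24e-13, edgeR), just under the fold-change threshold. Its library ranges did not overlap.

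In 786-O neither neuropilin passed the threshold. *NRP1* was at 276, 269 and 277 CPM with Cnsi and at 201, 234 and 228 CPM with IFNγ, with no overlap, a change of −0.31 (SE 0.0518, adjusted p = 2.26e-05, edgeR). In PD-L1si its change was −0.06 (adjusted p = 0.418, edgeR). *NRP2* was at 358, 357 and 369 CPM with Cnsi and at 343, 473 and 442 CPM with IFNγ, where the first replicate lay below the Cnsi range, and its change of 0.21 (adjusted p = 0.0802, edgeR) did not pass. The line difference for *NRP1* was 0.61 (SE 0.0663, adjusted p = 4.46e-10, edgeR) and that for *NRP2* was −0.27 (adjusted p = 0.0202, edgeR), under the threshold.

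**Figure D2:**
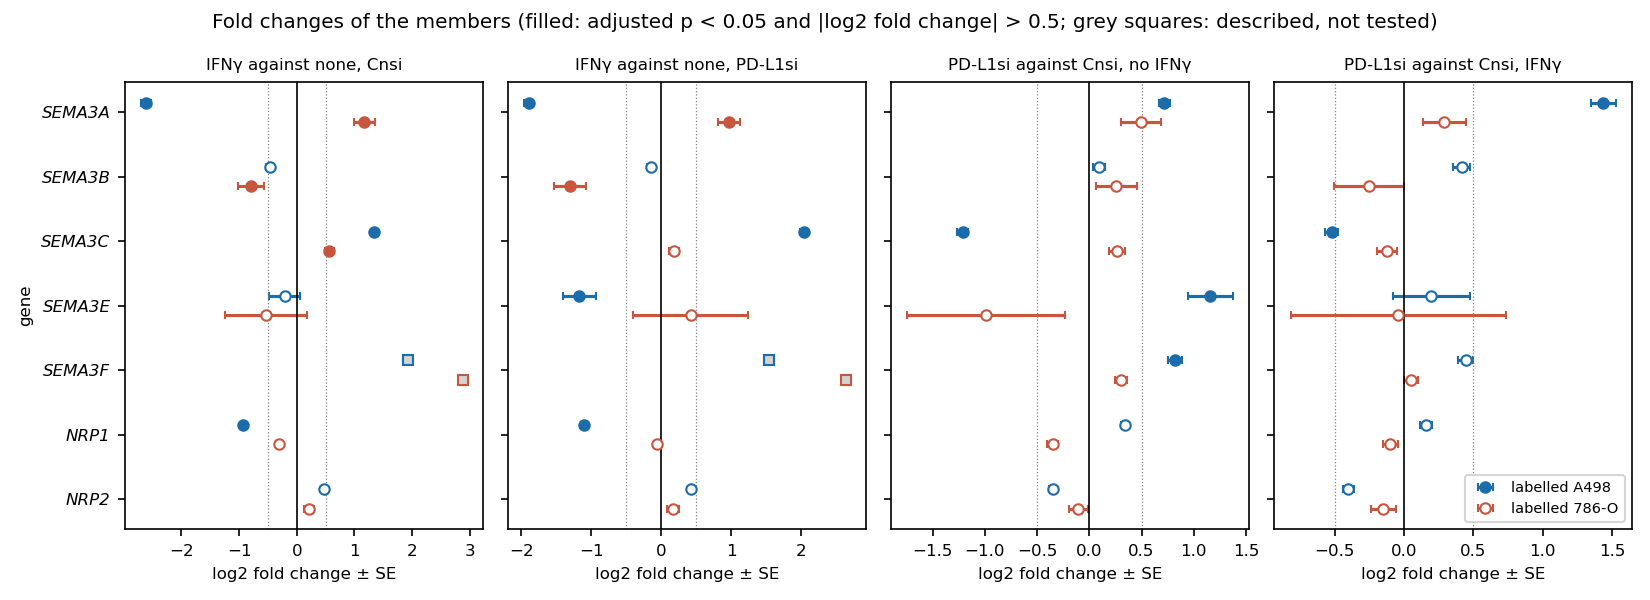
Log2 fold change ± SE (x axis, its own range in each panel) of 7 genes (*SEMA3D* is left out for its low counts) in 4 comparisons, A498 in blue and 786-O in red. Filled points passed the threshold, open points did not, and grey squares mark *SEMA3F* with IFNγ. The *SEMA3F* points of the PD-L1 siRNA panels are drawn by the same rule and are also a description. *SEMA3A* lies at −2.61 in A498 and at 1.17 in 786-O for IFNγ in Cnsi.

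Scaled per kilobase of exon so that genes can be compared, the leading ligand differed between the lines. In A498 with Cnsi, *NRP2* was highest at 26.3 CPM per kb, followed by *SEMA3C* at 17.7 and *NRP1* at 16.7 CPM per kb. *SEMA3B* was at 4.29, *SEMA3F* at 3.95 and *SEMA3A* at 3.77 CPM per kb, the last 2 with overlapping libraries. With IFNγ *SEMA3C* led at 45.0 CPM per kb, ahead of *NRP2* at 36.8, *SEMA3F* at 15.0 and *NRP1* at 8.81 CPM per kb. In 786-O with Cnsi the order was *NRP2* at 26.0, *NRP1* at 23.8, *SEMA3F* at 5.12 and *SEMA3C* at 3.42 CPM per kb. With IFNγ *SEMA3F* led at 38.0 CPM per kb, above *NRP2* at 30.2 and *NRP1* at 19.2.

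As a share of the summed class 3 level per kb, *SEMA3C* made up 59.4 ± 0.494% in A498 with Cnsi and 70.5 ± 0.933% with IFNγ (SD, n = 3). *SEMA3F* went from 13.2 ± 0.526% to 23.5 ± 1.17% there and *SEMA3A* from 12.6 ± 0.525% to 0.964 ± 0.0949%. In 786-O *SEMA3F* went from 53.9 ± 1.45% to 86.7 ± 0.385% and *SEMA3C* from 36.0 ± 0.575% to 11.5 ± 0.580%. The summed level went from 29.8 ± 0.596 to 63.9 ± 1.45 CPM per kb in A498 and from 9.49 ± 0.150 to 43.8 ± 2.36 CPM per kb in 786-O. The ratio of *NRP2* to *NRP1* per kb went from 1.57 ± 0.0632 to 4.17 ± 0.247 in A498 and from 1.09 ± 0.0150 to 1.57 ± 0.134 in 786-O. The *SEMA3F* shares follow from the values that chose the family. Every other share and the summed level also hold *SEMA3F* in the total, so all of these are a description. In 786-O the *SEMA3C* share fell while its level went from 3.42 to 5.07 CPM per kb.

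**Figure D3:**
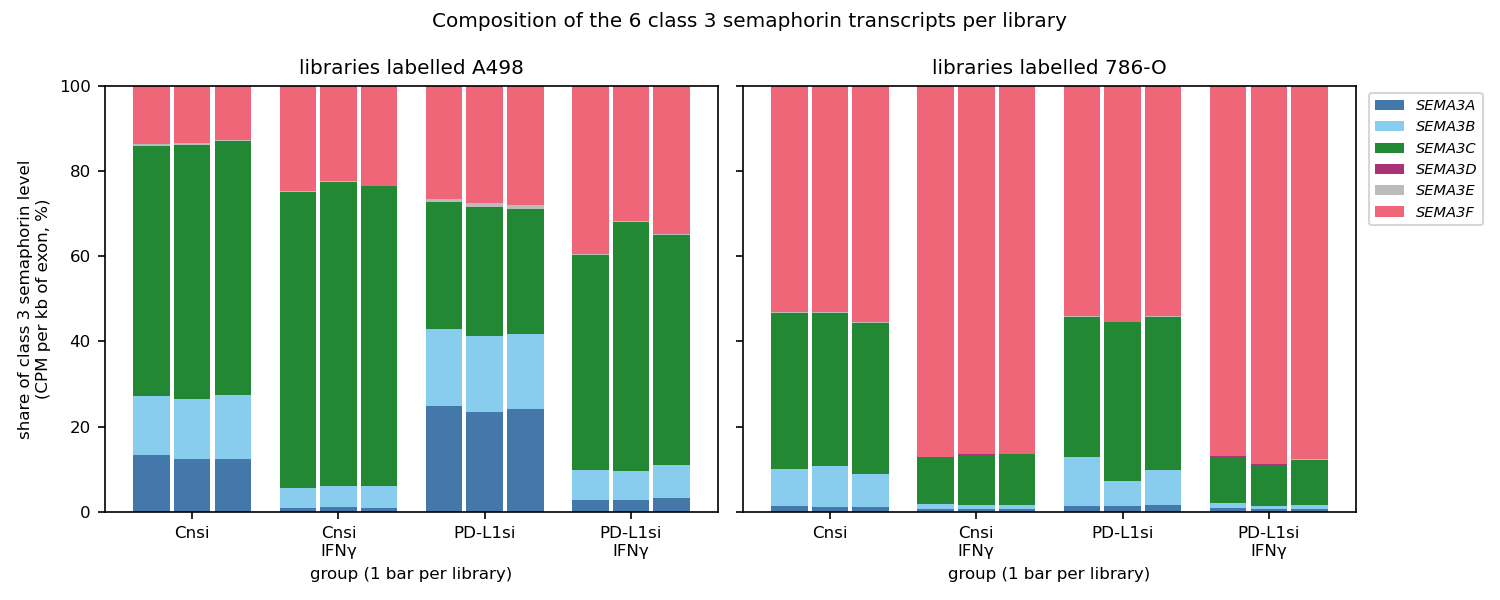
Share of each of the 6 genes in the summed class 3 semaphorin level (CPM per kb of exon, %, y axis), with one bar per library and 3 bars per group. With Cnsi and IFNγ, *SEMA3C* holds 70.5% of the mean A498 bar and *SEMA3F* holds 86.7% of the mean 786-O bar.

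PD-L1 siRNA changed the class in A498 even without IFNγ. Of the 6 genes other than *SEMA3F* and *SEMA3D*, *SEMA3A* and *SEMA3E* were called higher there and *SEMA3C* lower. Of all genes, 8.48% were called. *SEMA3C* fell from a mean of 108 ± 2.74 to 46.6 ± 1.42 CPM (SD, n = 3), a log2 fold change of −1.21 (SE 0.0536, adjusted p = 3.63e-19, edgeR). *SEMA3F* went from 19.1 ± 0.990 to 33.7 ± 1.35 CPM, a change of 0.82 (SE 0.0696), given as a description. *SEMA3A* changed by 0.72 (SE 0.0527, adjusted p = 1.93e-13, edgeR). *SEMA3E* went from 19 to 25 counts per Cnsi library to 49 to 59 in PD-L1si, a change of 1.16 (SE 0.216, adjusted p = 3.09e-05, edgeR). *NRP1* at 0.34 (adjusted p = 8.99e-09, edgeR) and *NRP2* at −0.35 (adjusted p = 6.54e-09, edgeR) stayed under the fold-change threshold.

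Under IFNγ in A498, 2 of the 6 genes passed against 10.1% of all genes. *SEMA3A* rose from 5.69 ± 0.445 to 15.5 ± 1.17 CPM, a log2 fold change of 1.44 (SE 0.0893, adjusted p = 1.15e-15, edgeR). *SEMA3C* fell from 274.7 ± 3.37 to 191.7 ± 19.7 CPM, a change of −0.52 (SE 0.0482, adjusted p = 7.42e-11, edgeR). Without PD-L1si IFNγ replicate 1 the change of *SEMA3C* was −0.46 and was no longer called. *NRP2* at −0.40 (adjusted p = 3.16e-10, edgeR) was under the threshold. The change of *SEMA3F* was 0.44, given as a description. In the same comparison *PAX8* changed by −0.77, the pericyte marker *RGS5* by 0.69 and *COL1A1* by 0.72. Without IFNγ *RGS5* rose by 1.14 and the hypoxia-driven tumor marker *CA9* by 1.34. The part of these genes in the values was not tested.

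In 786-O, PD-L1 siRNA moved 0 of the 6 genes other than *SEMA3F* and *SEMA3D* past the threshold by edgeR and by DESeq2. This held both without IFNγ (2.81% of all genes called) and with it (3.03%). At an unadjusted p under 0.05 in edgeR there were 4 without IFNγ, *SEMA3F* included, against 5235 of all 21209 genes. With IFNγ there were 0, against 5552 of all genes. Values with an adjusted p under 0.05 but a small fold in the first comparison were *SEMA3C* at 0.26 (adjusted p = 0.0191, edgeR) and *NRP1* at −0.35 (adjusted p = 2.79e-05, edgeR). There *SEMA3F* changed by 0.30, given as a description. Under IFNγ, *SEMA3F* was at 183.4 ± 9.12 CPM with Cnsi and at 189.7 ± 8.60 CPM with PD-L1si, a change of 0.05, given as a description.

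The lines differed in the PD-L1 siRNA effect without IFNγ for *SEMA3C*, *NRP1* and *SEMA3E* of the 6 genes other than *SEMA3F* and *SEMA3D*, against 4.48% of all genes. The differences, 786-O minus A498, were 1.48 for *SEMA3C* (adjusted p = 2.00e-14, edgeR), −0.69 for *NRP1* (adjusted p = 1.60e-10, edgeR) and −2.14 for *SEMA3E* (adjusted p = 0.0332, edgeR). That of *SEMA3F* was −0.51, given as a description. Under IFNγ 2 differed, against 5.6% of all genes, by −1.14 for *SEMA3A* (adjusted p = 1.07e-06, edgeR) and −0.66 for *SEMA3B* (adjusted p = 0.0474, edgeR). With each of the 24 libraries left out in turn, the difference of *SEMA3B* was lost in 19 fits and that of *SEMA3E* in 7. For the IFNγ effect in Cnsi 3 of the 6 genes other than *SEMA3F* differed, against 28.4% of all genes. Under IFNγ the siRNA lowered *CD274* less in 786-O than in A498, as given above. The part of this in the line differences of the siRNA effect, and in the lack of calls in 786-O, was not tested.

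The IFNγ effect itself differed between the siRNA arms in A498 for 2 of the 6 genes other than *SEMA3F* and *SEMA3D*, against 2.45% of all genes. The effect in PD-L1si minus that in Cnsi was 0.72 (SE 0.104, adjusted p = 5.26e-06, edgeR) for *SEMA3A*, whose fall was smaller with PD-L1si. It was 0.69 (SE 0.0721, adjusted p = 1.20e-08, edgeR) for *SEMA3C*, whose rise was larger on the log2 scale. *SEMA3C* started lower in PD-L1si (46.6 against 108 CPM) and ended lower with IFNγ (191.7 against 274.7 CPM). The IFNγ response genes *IRF1* and *CXCL10* were also called lower by PD-L1si without IFNγ and higher in this difference. That of *SEMA3F* was −0.38 (SE 0.0891), given as a description. In 786-O 0 of the 6 were called by edgeR and by DESeq2, against 0.099% of all genes. Of the 6, 2 had an unadjusted p under 0.05 in edgeR, against 1722 of all 21209 genes.

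Semaphorins of the other classes, most of them membrane-bound, mainly fell with IFNγ. With Cnsi in A498, 2 of 13 tested rose and 8 fell, against 36.8% of all genes called either way, with a median of −0.71 against −0.03 over all genes. *SEMA6A* fell by 2.31 and *SEMA6B* by 2.60 on the log2 scale, while *SEMA7A*, a GPI-anchored member, rose by 1.05. With PD-L1si in A498 *SEMA7A* was at 7.48 ± 0.382 CPM without and 7.47 ± 0.592 CPM with IFNγ, and its effect differed between the arms by −1.05 (adjusted p = 5.62e-07, edgeR). In 786-O 0 of 10 other semaphorins rose and 5 fell with Cnsi, against 18.5% of all genes called either way, with a median of −0.44 against 0.00488 over all genes, and *SEMA7A* was among them at −0.71. *SEMA4B*, *SEMA5A* and *SEMA5B* fell with Cnsi in both lines. *SEMA6A*, *SEMA6C* and *SEMA6D* had 0 counts in all libraries of 786-O, so they were not measured and not among the 10 tested there. *SEMA6B* was not called with IFNγ in either arm of 786-O.

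Of the plexins, the signaling receptors, *PLXNA2* rose in both lines, from 0.571 ± 0.141 to 2.84 ± 0.138 CPM in A498 (log2 fold change 2.30, SE 0.255) and from 7.63 ± 0.258 to 14.8 ± 1.68 CPM in 786-O (0.95, SE 0.0966). With Cnsi, 2 of 8 plexins rose and 2 fell in A498, against 36.8% of all genes called, and 1 of 8 rose and 1 fell in 786-O, against 18.5%, both near the share over all genes. *PLXNA1* and *PLXNA3*, further receptors of class 3 signals, were not called with IFNγ in Cnsi in either line. *L1CAM*, an adhesion molecule that joins the neuropilin-1 receptor complex, rose in Cnsi in both lines, by 1.90 (SE 0.129) and 1.00 (SE 0.0540). In PD-L1si it rose in A498 and changed by 0.49 in 786-O, under the threshold, and the 786-O arms differed by −0.52 (SE 0.0768, adjusted p = 0.00283, edgeR). *NRCAM*, the other such adhesion molecule tested, rose with IFNγ in both arms of A498 and was not called in either arm of 786-O. Under IFNγ, PD-L1 siRNA lowered *NRCAM* in A498. Of the VEGF ligands and receptors, 1 of 4 rose in Cnsi in A498 (*VEGFC*, by 0.61, SE 0.0614) and 0 fell, against 36.8% of all genes called. In PD-L1si in A498 *VEGFA* and *VEGFC* rose and *PGF* fell, against 33.5% of all genes called. In 786-O the VEGF receptor *FLT4* had 18 counts over the Cnsi libraries and 60 with IFNγ, a rise of 1.85 (SE 0.402), and 10 and 56 with PD-L1si, a rise of 2.55 (SE 0.496). The receptor *KDR* had 1 and 22 counts with Cnsi and 0 and 34 with PD-L1si. *KDR* passed the filter on low counts only through the groups with IFNγ, so its counts are given without a test. Both are also endothelial genes, as is *PECAM1*, which rose in the same comparisons, while in 786-O *CDH5* had 0 to 1 counts in a group. *TEK* and *VWF* were at 0 in all libraries of 786-O and are treated as not measured there. The part of such cells in these counts was not tested.

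Of 5 proteases tested with Cnsi in A498, 1 rose with IFNγ (the convertase *PCSK6*) and 1 fell, against 36.8% of all genes called. In 786-O 0 of 4 rose and 2 fell, against 18.5%. *PCSK5*, a convertase of the family that cleaves these ligands, fell in both, by −2.09 (SE 0.0629) and −0.77 (SE 0.0547). *ADAMTS1* was the other that fell in 786-O, and *FURIN* did not pass. Of the intracellular effectors, 4 of 22 rose and 1 fell with Cnsi in A498, fewer than the 36.8% of all genes called, and 1 of 20 rose and 4 fell in 786-O, against 18.5%. *MICAL3*, an actin-oxidizing enzyme of the MICAL family, fell in both, and *FYN*, a kinase in *SEMA3A* signaling, changed by 0.80 in A498 and −0.73 in 786-O. Under IFNγ, PD-L1 siRNA lowered *DPYSL3*, a CRMP protein, by −0.54 in each line.

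The genes whose levels followed *SEMA3F* most closely across the 12 libraries of each line, ranked by the lower of their 2 Pearson correlations of log2(CPM + 1) among 17999 genes, were *FAM117B* (0.987 in A498, 0.989 in 786-O), *C4B* (0.981, 0.992), *RBMS1* (0.990, 0.980), *FLAD1* (0.979, 0.981) and *TRIB1* (0.978, 0.995). *C4B* has a near-identical paralog, so its counts are uncertain. The libraries share the same 4 groups, so these values describe a shared group pattern. Within the class, *SEMA3A* and *SEMA3F* correlated at −0.71 in A498 and at 0.94 in 786-O.

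Several genes overlap an annotated gene on the opposite strand. *NRP1* shares 561 exonic bases with ENSG00000238258, which moved with it: with IFNγ in Cnsi by −0.91 in A498 and −0.30 in 786-O. *NRP2* shares 147 with ENSG00000225216, which changed by 0.66 in A498. *SEMA3F* shares 110 with *SEMA3F-AS1*, which changed by 0.17 and −0.02 against 1.93 and 2.89 for *SEMA3F*. The kit is stranded, and how far strand assignment enters the *NRP1* and *NRP2* values was not tested.

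**Figure D4:**
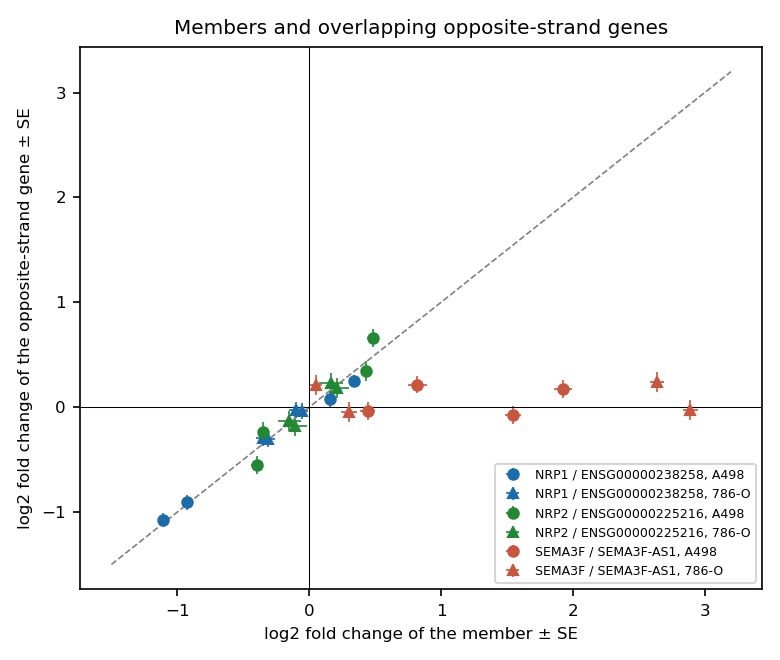
Log2 fold change ± SE of *NRP1*, *NRP2* and *SEMA3F* (x axis) against that of the overlapping gene on the opposite strand (y axis) in 4 comparisons per line, circles for A498 and triangles for 786-O, with a dashed line of equality. The *NRP1* points lie near the line and the *SEMA3F* points lie along 0, with *SEMA3F* reaching 2.89.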

How the data were processed

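The 8 genes and the pathway lists were chosen with earlier results of these data known. The authors trimmed reads with Trimmomatic 0.36.6, aligned them to GRCh38 with HISAT2 2.1.0 and counted them on GENCODE genes with featureCounts 1.6.3, set to use the strand. What the authors deposited are raw counts for 39321 genes, of which 39148 were matched to a symbol by Ensembl identifier. Samples were grouped by the labels, and 0 columns had no sample. The tests used edgeR 4.0.16 under R 4.3.3 (TMM scaling, quasi-likelihood F-test, robust), with one fit of 12 libraries per line and one mean per group. Genes with at least 10 counts summed over a group were tested, 20916 in A498 and 21209 in 786-O. Line differences were tested in one model of 24 libraries over the 17999 genes tested in both. P-values were adjusted by Benjamini-Hochberg over all genes tested. Levels per kb used the summed exon length of the GENCODE 44 annotation, a later release than the one the study's methods give for counting. The identifiers of *NRP2*, *SEMA3D* and *SEMA3E* have another version there, and the effect on their levels per kb was not tested. Standard errors come from the Fisher information and the moderated dispersion. The exact interval given covers counting error only. The script was tested on simulated data. All 8 genes, check genes, list genes called in the same direction in both lines or at the ends of the range, and the genes most like each member are named. *VEGFC*, *SEMA7A* and other list genes outside that rule were named after their values were seen. Alternatives were DESeq2 1.42.0, RLE scaling, other filters and thresholds, a replicate block and leaving out each library.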

Additional observations from a re-analysis of the deposited data

Results flagged for a closer look

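The effects of the same treatment differed between the lines, by a test of the difference itself in one model (edgeR, 786-O minus A498, log2 scale). For IFNγ in Cnsi the differences were 3.78 for *SEMA3A*, −0.79 for *SEMA3C* and 0.61 for *NRP1*. For PD-L1 siRNA under IFNγ they were −1.14 for *SEMA3A* and −0.66 for *SEMA3B*. For PD-L1 siRNA without IFNγ they were 1.48 for *SEMA3C*, −2.14 for *SEMA3E* and −0.69 for *NRP1*. That of *SEMA3F* was −0.51, given as a description.

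In A498 the IFNγ effect differed between the siRNA arms, by the interaction term of the edgeR fit, with PD-L1si minus Cnsi at 0.72 for *SEMA3A* and 0.69 for *SEMA3C*.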

How the results depend on the processing

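Of 1190 alternative values of the fold changes, 1176 kept their direction and side of the threshold, 3 no longer passed, 4 newly passed, 6 turned in sign and 1 moved by more than its spread. Without a fold-change threshold, 5 genes were called for IFNγ in Cnsi in A498, against 12819 of all 20916. For PD-L1 siRNA under IFNγ in A498 there were 6, *SEMA3F* included, against 7122. For the interaction in A498 they were *SEMA3A*, *SEMA3B*, *SEMA3C* and *NRP1*, against 1900. In 786-O, PD-L1 siRNA without IFNγ gave 3, *SEMA3F* included, against 2721 of 21209. The line difference in PD-L1 siRNA under IFNγ gave 5, *SEMA3F* included, against 2933 of 17999. With a log2 fold change over 1, A498 had 1 for PD-L1 siRNA under IFNγ, against 601 of all 20916 genes. It had 2 for PD-L1 siRNA without IFNγ, against 553, and 0 for the interaction, against 119. For IFNγ in Cnsi in 786-O, *SEMA3A* was left, with *SEMA3D* set aside, against 1878 of 21209. The line difference gave 1 for IFNγ in Cnsi, against 2145 of 17999. For PD-L1 siRNA it gave 1 under IFNγ, against 286, and 2 without IFNγ, against 263. The counts over all genes thus moved with the threshold too. With each library left out, counts ranged from 1 to 2 for PD-L1 siRNA under IFNγ in A498 and from 1 to 2 for its line difference. They ranged from 2 to 4, *SEMA3F* included, for the line difference of PD-L1 siRNA without IFNγ. The line difference of *SEMA3B* under IFNγ was lost in 19 of 24 omissions and that of *SEMA3E* without IFNγ in 7. *NRP2* in A498 passed for IFNγ in Cnsi, at 0.50 to 0.52, without Cnsi IFNγ replicate 2, PD-L1si replicate 2 or PD-L1si replicate 3.

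All values that turned in sign were uncalled. *SEMA3E* in 786-O under PD-L1 siRNA and IFNγ turned from −0.04 to 0.00969 with the replicate block and ran from −0.58 to 1.58 with each library left out. For IFNγ in Cnsi it ran from −2.15 to 0.0111, and the *NRP2* interaction in 786-O ran from −0.17 to 0.0477. The cause was not tested. The replicate numbers did not pair the libraries: same-numbered libraries correlated at a mean of 0.0362 in A498 and 0.0218 in 786-O after removal of group means. The replicate block moved no count of calls by over 1.5 times. At these depths *SEMA3D*, and *SEMA3E* in 786-O, cannot show moderate changes.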
